A study of Homo sapiens with 4 samples.

Results

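Cytosolic heat shock genes encode the chaperones that keep proteins folded in the cytosol and nucleus, together with the transcription factor that drives them under stress. The group described here holds 10 of the 20348 genes in the deposited table. They were chosen by name for their known function, with earlier results of these data known. The group holds the heat shock factor HSF1, the HSP70 genes HSPA1A, HSPA1B and HSPA8, and the HSP70 partners HSPH1, DNAJB1 and BAG3. The HSP90 genes HSP90AA1 and HSP90AB1 and the small heat shock gene HSPB1 complete it. All 10 were found by Ensembl identifier, and in both cell lines each of them averaged 1 CPM or more, where CPM is a gene's count scaled to a library total of 1000000. They were measured by poly-A RNA sequencing in K562, a human line from chronic myeloid leukemia with erythroid features, and THP-1, a human line from acute monocytic leukemia. Each line was kept for 72 h in DMSO, the solvent control, or in 100 nM periplocin, a cardiac glycoside of Cortex periplocae. The sample titles call the controls blank, whereas the library names give DMSO. There was 1 library per condition, 4 in all, so no difference below has a replicate check, and each interval covers counting error between those libraries only.

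HSF1 is held inactive by chaperones in unstressed cells. When unfolded proteins draw the chaperones away, HSF1 forms trimers and binds heat shock elements, which are inverted repeats of the unit GAA, in the promoters of chaperone genes. HSP70 proteins bind unfolded stretches in a cycle of ATP hydrolysis that J-domain proteins such as DNAJB1 start and that nucleotide exchange factors such as HSPH1 and BAG3 reset. HSP90 proteins act later on kinases, receptors and other clients, and small heat shock proteins such as HSPB1 hold unfolded proteins without ATP. HSPA1A, HSPA1B and HSP90AA1 are known as the stress-inducible forms, and HSPA8 and HSP90AB1 as the constitutive forms. Leukemia cells are known for high levels of these chaperones.

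Heat shock elements are shown here because they are the sequence that these genes are known to share. RefSeq promoter windows of 300 bases, from 250 before to 50 after a start site on GRCh38.p14, were available for 9 of the 10 genes, with 14 windows in all. The 2-unit element, GAANNTTC or TTCNNGAA, stood in windows of 7 of the 9 genes, compared with 14.9% of 15340 genes of the table that had a window. The 3-unit element, which is GAANNTTC followed by NNGAA or TTCNNGAA followed by NNTTC, stood in windows of HSPA8, HSP90AA1 and HSP90AB1, or 3 of the 9, compared with 0.535% of those genes. Both strands were searched, and a 3-unit match holds overlapping 2-unit matches. These letters were not found in the windows of BAG3 and HSPH1. Capitals mark the matched bases upstream of the start in the stretches below, which read 5′ to 3′ along the gene.
HSPA1A, chr6:31815422-31815459, plus strand: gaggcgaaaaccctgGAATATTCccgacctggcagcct
HSPA1B, chr6:31827618-31827655, plus strand: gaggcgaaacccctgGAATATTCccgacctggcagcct
HSPA8, chr11:123062171-123062199, minus strand: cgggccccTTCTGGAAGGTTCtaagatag
HSP90AA1, chr14:102087104-102087133, minus strand: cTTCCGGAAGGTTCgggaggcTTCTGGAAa
HSP90AB1, chr6:44247763-44247858, plus strand: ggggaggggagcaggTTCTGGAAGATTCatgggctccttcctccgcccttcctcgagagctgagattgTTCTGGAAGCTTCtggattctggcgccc
DNAJB1, chr19:14518422-14518489, minus strand: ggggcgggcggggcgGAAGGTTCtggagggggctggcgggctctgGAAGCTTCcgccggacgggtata
HSPB1, chr7:76302476-76302513, plus strand: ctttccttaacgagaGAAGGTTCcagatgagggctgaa

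The matched bases of HSPA1A lay 106 to 99 bases before its start site, and those of HSPA1B 105 to 98 before its own. In HSPB1 the match lay 182 to 175 bases before the start. Of the 10 genes HSPA1A and HSPB1 had the largest ratios of periplocin to DMSO, and each held 1 exact match of 2 units and none of 3. The search allowed no altered base. In the stretches above, gac in HSPA1A and gat in HSPB1 stand where GAA would complete 3 units. HSPA8 and HSP90AB1 each held 2 matches of 3 units (1 of them shown for HSPA8), and HSP90AA1 held 1. Of these 3 genes HSP90AA1 was higher in periplocin in both lines, HSP90AB1 was lower in both, and HSPA8 was higher in K562 and lower in THP-1. Whether the matches bear on the ratios was not tested.

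Library totals were between 16381149 and 20622694 counts. Mitochondrially encoded genes took 5.62% of counts in K562 DMSO and 2.07% in K562 periplocin, compared with 5.24% and 3.92% in THP-1. The labels of the lines were checked against 7 erythroid and 7 monocytic marker genes. In the controls the erythroid markers summed to 2025 CPM for K562 and to 3.44 CPM for THP-1, and the monocytic markers to 89.8 and 778 CPM. In K562 the erythroid markers were at 7805 CPM with periplocin, and 6 of the 7 were at least 2-fold higher. In K562 periplocin the monocytic markers were at 83.5 CPM with MPEG1 at 0. In THP-1 periplocin the erythroid markers were at 1.75 CPM with HBG2 at 0 and the monocytic markers were at 979 CPM. The part of these shifts in the values below was not tested.

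HSPA1A, HSPA1B and HSPB1 were 1.70 to 2.43 times higher in periplocin in both lines. BAG3 and HSP90AA1 were higher in both by less, HSP90AB1 was lower in both, and HSPA8, HSPH1 and DNAJB1 differed in direction between the lines. In K562, 2 of the 10 genes, HSPA1A and HSPB1, were at least 2-fold higher and 0 were at least 2-fold lower, where 8.84% of the 11862 genes that averaged 1 CPM or more were that much higher and 11.6% that much lower. In THP-1 the same 2 genes were at least 2-fold higher and 0 were at least 2-fold lower, compared with 8.03% and 10.5% of 12341 genes. The median log2 ratio of the 10 genes was 0.27 in K562 and 0.27 in THP-1, beside -0.012 and -0.025 over all genes at that level. Ratios were scaled by TMM, a factor that sets aside genes with extreme ratios. It moved every log2 ratio by -0.011 in K562 and by 0.012 in THP-1 against scaling by library totals. In RNA from whole cultures, fewer cells that express a gene and less of its RNA in each cell cannot be told apart.

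**Figure D1:**
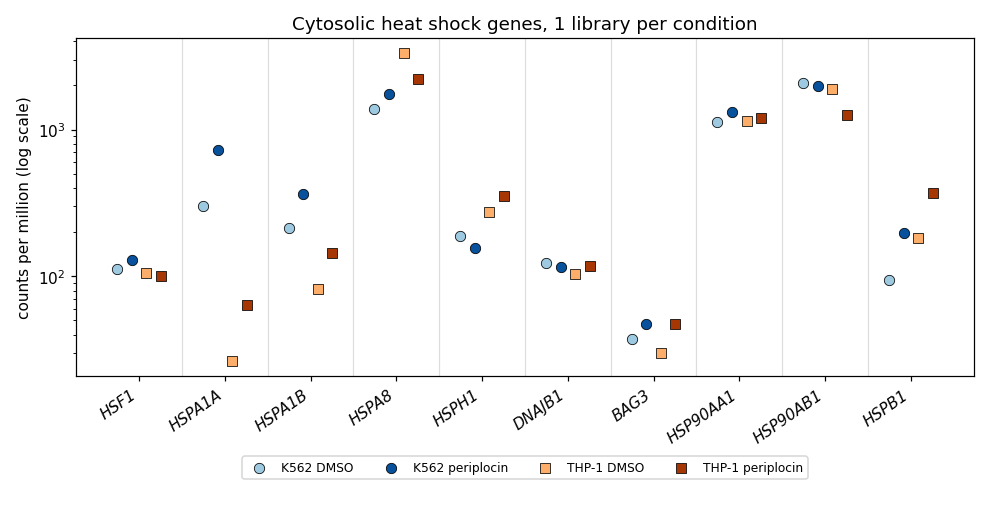
Level of each of the 10 genes in the 4 libraries, in CPM on a log axis; each point is 1 library, circles are K562 and squares THP-1, and darker points are periplocin. HSPA1A spans the widest range, from 26.7 CPM in THP-1 DMSO to 720 CPM in K562 periplocin, while HSF1 stays between 100.05 and 130 CPM.

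HSF1 (ENSG00000185122), on chromosome 8, was at nearly the same level in all 4 libraries. It had 1851 counts in K562 DMSO and 2151 in K562 periplocin, a fold of 1.14 with a 95% interval of 1.07 to 1.21. In THP-1 it had 2175 counts in DMSO and 1773 in periplocin, a fold of 0.956 with an interval of 0.898 to 1.02 that includes no change. HSF1 is regulated mainly at the protein level, which poly-A RNA does not measure.

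HSPA1A (ENSG00000204389) and HSPA1B (ENSG00000204388) lie close together on chromosome 6, from 31815464 to 31817946 and from 31827735 to 31830255 on GRCh38 in GENCODE release 29, and encode the stress-inducible HSP70. HSPA1A had 4940 counts in K562 DMSO and 11922 in K562 periplocin, a fold of 2.37 with an interval of 2.29 to 2.45. In THP-1 HSPA1A had 550 counts in DMSO and 1138 in periplocin, a fold of 2.43 with an interval of 2.19 to 2.69. In both lines the interval lay above 2-fold. HSPA1B went from 3485 to 6035 counts in K562, a fold of 1.70 (1.63 to 1.77). The THP-1 libraries held 1682 and 2554 counts, a fold of 1.78 (1.67 to 1.90). HSPA1B was higher in both periplocin libraries, below the 2-fold mark.

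These copies are near-identical, and 67.1% of the 150-base windows of the HSPA1A transcript stand unaltered in the HSPA1B transcript. The deposited values of both genes were fractional in all 4 libraries, while their sum was a whole number in each, with a tolerance of 0.005. The other 8 genes had whole counts throughout, and none of their 150-base windows stood in a transcript of another gene. The split between HSPA1A and HSPA1B is therefore less certain than their sum. The sum went from 8425 to 17957 counts in K562, a fold of 2.09 with an interval of 2.04 to 2.15. The THP-1 sum was 2232 and 3692, a fold of 1.94 with an interval of 1.84 to 2.05. Counted as 1 gene, the pair was thus past 2-fold in K562 and below it in THP-1, where HSPB1 alone remained.

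HSPA8 (ENSG00000109971), on chromosome 11, encodes the constitutive HSP70 of the cytosol, and its difference had opposite signs in the lines. In K562 it went from 22594 to 28768 counts, a fold of 1.25 with an interval of 1.23 to 1.27. THP-1 DMSO had 68294 counts and THP-1 periplocin 39262, a fold of 0.674 with an interval of 0.666 to 0.683. THP-1 DMSO held the highest level of HSPA8 among the libraries, at 3312 CPM, and THP-1 periplocin the next at 2216, above both K562 libraries at 1379 and 1737.

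The share of inducible message in the cytosolic HSP70 pool was higher in periplocin in both lines. This comparison, chosen after the values were seen, lies within each library and needs no scaling between libraries. Per length of transcript, HSPA1A and HSPA1B made up 26.9% of the HSPA1A, HSPA1B and HSPA8 pool in K562 DMSO and 38.1% in K562 periplocin. In THP-1 they made up 3.11% in DMSO and 8.45% in periplocin. The ratio of inducible to constitutive message was 1.68 times higher in K562 periplocin (interval 1.62 to 1.73) and 2.88 times higher in THP-1 periplocin (2.73 to 3.04). In THP-1 both terms of the ratio moved, with HSPA1A and HSPA1B higher and HSPA8 lower, while in K562 all 3 genes were higher. Even so the pool of THP-1 stayed mostly HSPA8.

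**Figure D2:**
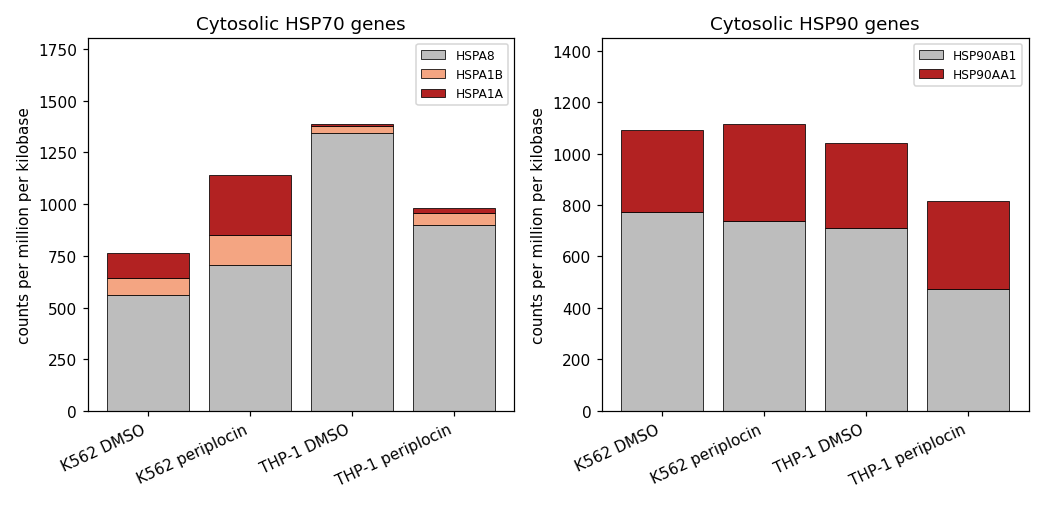
Stacked levels of the HSP70 genes (left) and HSP90 genes (right) in the 4 libraries, in CPM per kilobase of transcript, with grey for the constitutive form and color for the inducible forms, 1 library per bar. The colored share is larger in the periplocin bar of each line, from 26.9% to 38.1% of HSP70 in K562 and from 31.5% to 41.9% of HSP90 in THP-1.

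The share of the inducible form was also higher with periplocin for the HSP90 genes, more in THP-1. There HSP90AA1 was at only 1.05 times its control, and HSP90AB1 was at 0.670 times. HSP90AA1 (ENSG00000080824), the inducible form on chromosome 14, went from 18334 to 21838 counts in K562 (fold 1.17, interval 1.15 to 1.19). THP-1 DMSO had 23738 and THP-1 periplocin 21224 of a smaller total (fold 1.05, 1.03 to 1.07). HSP90AB1 (ENSG00000096384), the constitutive form on chromosome 6, went from 33848 to 32739 counts in K562, a fold of 0.950 (0.935 to 0.964). THP-1 DMSO had 39263 counts and THP-1 periplocin 22438, a fold of 0.670 (0.659 to 0.682). HSP90AB1 was the only one of the 10 genes that was lower in periplocin in both lines by its intervals. Per length, HSP90AA1 made up 29.2% of the pair in K562 DMSO and 33.7% with periplocin. For THP-1 the shares were 31.5% and 41.9%. The ratio of HSP90AA1 to HSP90AB1 was 1.23 times higher in K562 periplocin (1.20 to 1.26) and 1.56 times higher in THP-1 periplocin (1.53 to 1.60).

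The partners of HSP70 did not move together. HSPH1 (ENSG00000120694), an HSP110 protein that swaps nucleotide on HSP70, lies on chromosome 13 and went from 3093 to 2585 counts in K562, a fold of 0.821 (0.779 to 0.865). THP-1 DMSO had 5641 counts and THP-1 periplocin 6207, a fold of 1.29 (1.24 to 1.34). DNAJB1 (ENSG00000132002), the main inducible J-domain protein on chromosome 19, stayed near its control level in both lines. It went from 2032 to 1915 counts in K562 (fold 0.925, 0.869 to 0.985). The THP-1 libraries held 2154 and 2080 counts (fold 1.13, 1.07 to 1.20, after scaling). Both HSPH1 and DNAJB1 were thus slightly lower in K562 and slightly higher in THP-1.

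Set against the HSP70 pool per length, DNAJB1 was at 0.0715 of HSPA1A, HSPA1B and HSPA8 together in K562 DMSO and at 0.0448 in K562 periplocin. In THP-1 the same ratio went from 0.0332 to 0.0528. DNAJB1 per HSP70 message was lower with periplocin in K562, at 0.626 times its control value (0.588 to 0.668), and higher in THP-1, at 1.59 times (1.49 to 1.69). HSPH1 per HSP70 message behaved alike, at 0.555 times in K562 (0.526 to 0.586) and 1.81 times in THP-1 (1.74 to 1.88). Both ratios share the HSP70 pool as denominator, and DNAJB1 itself was at 0.925 times its control in K562 and 1.13 times in THP-1. HSPA8, the larger part of that pool, was at 1.25 times in K562 and 0.674 times in THP-1. These ratios were also chosen after the values were seen.

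BAG3 (ENSG00000151929), on chromosome 10, links HSP70 to small heat shock proteins and to selective autophagy, and had the lowest CPM of the 10 genes in every library but THP-1 DMSO, where HSPA1A was lower. It went from 610 to 786 counts in K562, a fold of 1.27 with an interval of 1.14 to 1.41. THP-1 DMSO had 623 counts and THP-1 periplocin 836, a fold of 1.57 with an interval of 1.42 to 1.75. HSPB1 (ENSG00000106211), the small heat shock protein HSP27 on chromosome 7, was higher by nearly the same fold in both lines. It went from 1556 to 3242 counts in K562, a fold of 2.05 with an interval of 1.93 to 2.17. THP-1 DMSO had 3753 counts and THP-1 periplocin 6543, a fold of 2.05 with an interval of 1.96 to 2.13. Both intervals extend below 2-fold, and with library totals that leave out mitochondrially encoded genes HSPA1A was the only gene of the 10 past 2-fold in K562.

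**Figure D3:**
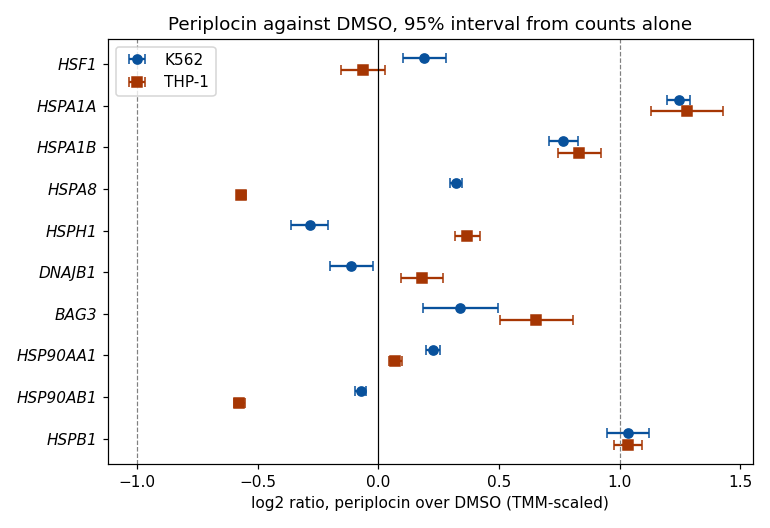
Log2 ratio of periplocin to DMSO for each gene in K562 (circles) and THP-1 (squares), TMM-scaled, with 95% intervals from counts alone; dashed lines mark 2-fold. HSPA1A, HSPB1, HSPA1B and BAG3 lie to the right of 0 in both lines, HSP90AB1 to the left in both, and HSPA8, HSPH1 and DNAJB1 on opposite sides.

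By their intervals, periplocin was above DMSO in both lines for HSPA1A, HSPA1B, HSPB1, BAG3 and HSP90AA1, and below it in both for HSP90AB1. HSPA8, HSPH1 and DNAJB1 had opposite signs, and HSF1 had an interval that includes no change in THP-1. With counts this high the intervals are narrow, and the share of all genes with such intervals was not computed. For DNAJB1 in K562 the upper limit of the log2 ratio was -0.021, close to no change. With DESeq2 size factors that ratio was -0.086 in place of -0.11. For HSF1 in THP-1 the upper limit was 0.027, and the ratio was -0.096 in place of -0.065 with totals that leave out mitochondrially encoded genes. How DNAJB1 and HSF1 are sorted thus depends on the scaling. The log2 ratio in THP-1 minus that in K562 was 0.03 for HSPA1A and -0.00040 for HSPB1, with standard errors from counts of 0.08 and 0.05. For the sum of HSPA1A and HSPA1B, which is more certain than their split, the difference was -0.11 (standard error 0.04). It was -0.89 for HSPA8 (standard error 0.02), -0.50 for HSP90AB1 (0.02) and 0.65 for HSPH1 (0.05). No residual spread is left to test these differences between the lines. Ranked from the highest ratio, HSPA1A stood at 662 of 11862 genes in K562 and at 669 of 12341 in THP-1, and HSPB1 at 997 and 940. HSP90AB1 and HSPA8 stood at 9694 and 9655 in THP-1.

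**Figure D4:**
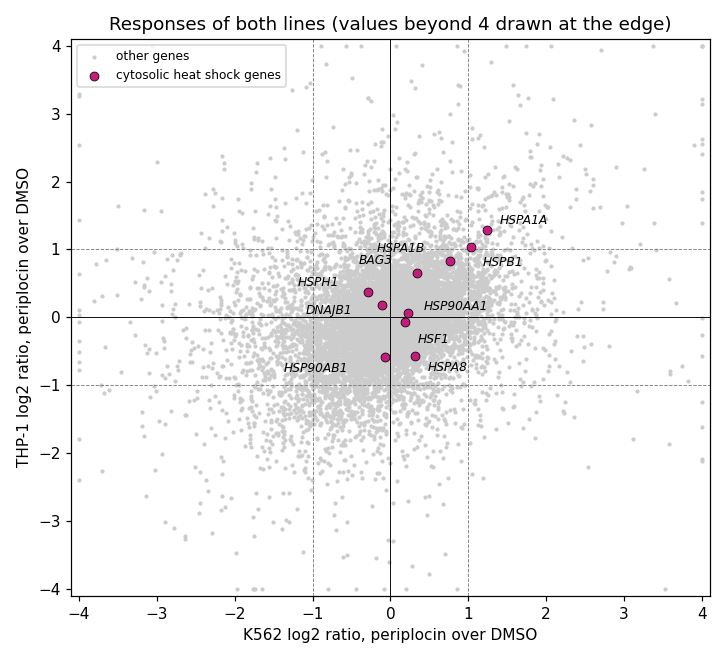
Log2 ratio of periplocin to DMSO in K562 (x axis) against THP-1 (y axis), TMM-scaled, for genes averaging 1 CPM or more in both lines (grey) and the 10 cytosolic heat shock genes (colored); dashed lines mark 2-fold and values beyond 4 are drawn at the edge. HSPA1A and HSPB1 lie past both upper dashed lines, and HSPA8 and HSP90AB1 lie below 0 on the y axis, within 2-fold.

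The one test the design allows joins all 4 libraries in a model of line plus treatment, and its error is how far the lines differ, with 1 residual degree of freedom. By edgeR's quasi-likelihood test with Benjamini-Hochberg adjustment over 13584 genes, 0 of the 10 genes passed an adjusted p of 0.05, as did 0% of all genes. HSPA1A had a log2 ratio of 1.27 (edgeR adjusted p = 0.36), HSPB1 one of 1.04 (adjusted p = 0.37) and HSPA1B one of 0.81 (adjusted p = 0.39). These 3 genes were under an unadjusted 0.05, as were 1535 genes, or 11.3%. DESeq2 passed 125 genes, or 1.06% of 11740, and HSPA1A (adjusted p = 0.0051) and HSPB1 (adjusted p = 0.049) were among them. The adjusted p of the remaining 7 genes lay between 0.56 and 0.96 by edgeR. All 3 were above DMSO in each line.

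In the control libraries HSPA1A differed most between the lines among the 10 genes, followed by HSPA8 and HSPA1B. HSPA1A was 10.4 times higher in K562 DMSO than in THP-1 DMSO, at 302 and 26.7 CPM, and HSPA1B 2.40 times higher, at 213 and 81.6 CPM. Summed, which sets aside how reads were divided, the pair was 4.37 times higher in K562. HSPA8 was 2.61 times higher in THP-1 DMSO and HSPB1 2.08 times higher, while HSP90AB1, HSF1, DNAJB1, HSP90AA1 and BAG3 differed by less than 1.5-fold. At least 2-fold higher in THP-1 were 2 of the 10 genes, beside 22.8% of 12845 genes, and at least 2-fold lower were 2, beside 21.1%. These comparisons are of 1 library per line. With library totals as the scale HSPB1 was below 2-fold.

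The order of levels per kilobase of the longest coding transcript differed between the lines. In K562 DMSO HSP90AB1 was highest at 773 CPM per kilobase, followed by HSPA8 at 560, HSP90AA1 at 319, HSPA1A at 121 and HSPB1 at 104. In THP-1 DMSO HSPA8 was highest at 1345, followed by HSP90AB1 at 712, HSP90AA1 at 328 and HSPB1 at 200.2, and HSPA1A was lowest at 10.7. HSPB1 moved past HSP90AA1 in THP-1 periplocin, at 406 and 341 CPM per kilobase. With the median transcript length in its place some neighbours exchange places. HSF1 and DNAJB1 were close in all 4 libraries, between 46.1 and 60.6 CPM per kilobase. The 10 genes together took 0.564% of all counts in K562 DMSO and 0.676% in K562 periplocin. In THP-1 they took 0.717% in DMSO and 0.587% in periplocin.

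Other genes of the chaperone network are given from lists written from general knowledge, with earlier results of these data known. Their counts past 2-fold are to be read beside the shares over all genes averaging 1 CPM or more. Those were 8.84% higher and 11.6% lower in K562, and 8.03% and 10.5% in THP-1. Among heat shock factor genes, HSF2, a partner of HSF1 known for roles in development, had 316 and 834 counts in the K562 libraries, a log2 ratio of 1.37 (1.19 to 1.57). The THP-1 libraries held 903 and 894, a log2 ratio of 0.22 (0.08 to 0.35). HSF4 had 198 and 288 counts in K562, and 80 and 50 in THP-1. HSF5 and HSFX1 had at most 6 counts in any library. HSBP1, which binds HSF1 trimers, was higher in both lines, from 1582 to 2149 and from 1353 to 1871 counts. HSF2 was the one gene of this list of 7 that was past 2-fold among the 3 with at least 1 CPM in K562, and 0 of 3 were in THP-1.

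HSPA6, an HSP70 gene known for strict induction by heat and named here after its values were seen, had 110 and 25 counts in the K562 libraries, and 18 and 80 in those of THP-1. Its log2 ratio was -2.16 in K562 (-2.85 to -1.53) and 2.37 in THP-1 (1.63 to 3.21). It was the only gene past 2-fold in the list of other HSP70 and HSP110 genes, of 6 with at least 1 CPM in K562 and 7 in THP-1. In THP-1, at 0.873 CPM in DMSO and 4.51 CPM in periplocin, HSPA6 reached that filter only through the library in which it was high. HSPA4, another HSP110 gene, was close to its controls, with log2 ratios of 0.35 and 0.24. HSPA1A and HSPA6, both known as heat-induced HSP70 genes, thus had opposite signs in K562 and the same sign in THP-1.

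Of 18 other cytosolic J-domain genes with at least 1 CPM, 4 were at least 2-fold higher and 2 lower in K562, and 1 was higher and 0 were lower in THP-1, with medians of 0.17 and 0.30. DNAJB2 went from 131 to 330 counts in K562, and DNAJB6, which holds back protein aggregation, from 1818 to 3045 there, with 1762 and 3029 in THP-1. DNAJB6 was past 2-fold in THP-1, at a log2 ratio of 1.01. Among 9 HSP70 exchange factors and cofactors, 0 were past 2-fold in either line. There BAG1 and STUB1, an exchange factor and a ubiquitin ligase of HSP70, were higher in K562 (log2 ratios 0.38 and 0.44) and lower in THP-1 (-0.62 and -0.51).

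Among 14 HSP90 cochaperones, CHORDC1 and UNC45A were at least 2-fold higher in K562, from 1306 to 3046 and from 1072 to 2414 counts, and 0 were past 2-fold in THP-1. The list had a median of 0.22 in K562 and 0.036 in THP-1. FKBP5, a cochaperone of steroid receptors and a known glucocorticoid target, was lower in both lines by nearly the same amount, from 4807 to 2522 and from 2025 to 897 counts (log2 ratios -0.96 and -0.94). Of the other small heat shock genes only CRYAB and HSPB3 in K562 and HSPB7 in THP-1 had at least 1 CPM, and all 3 were past 2-fold higher there, with CRYAB at 8 and 64 counts and HSPB7 at 129 and 633. CRYAB, at 0.488 CPM in K562 DMSO and 3.86 CPM in K562 periplocin, reached the expression filter only through the library in which it was high. Its place among the 3 was thus partly set by that rise. HSPB3 had only 19 and 50 counts in K562.

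The TRiC and prefoldin genes, which are also cytosolic, and chaperones of other compartments are given for comparison. In the TRiC and prefoldin list, which folds actin and tubulin, 0 of 14 genes were past 2-fold in either line, and 12 of 14 had a negative log2 ratio in THP-1, where the median was -0.30, compared with -0.030 in K562. Of 9 mitochondrial chaperones 2 were at least 2-fold lower in K562 and 1 in THP-1, with medians of -0.50 and -0.32. HSPA9, the mitochondrial HSP70, went from 18258 to 7649 counts in K562, and TRAP1, the mitochondrial HSP90, from 1809 to 537 in THP-1. Of 16 endoplasmic reticulum chaperones 1 was at least 2-fold lower in K562 and 0 were past 2-fold in THP-1, with medians of -0.34 and -0.028. HSPA5, the HSP70 of that compartment, had 18549 and 7843 counts in K562 (log2 ratio -1.27) but 7138 and 6941 in THP-1 (0.19). The median of the mitochondrial list was below the all-gene median in both lines, and that of the endoplasmic reticulum list in K562, while in THP-1 the latter lay beside the all-gene median of -0.025. The median of the 10 cytosolic genes, with HSPA1A and HSPA1B counted separately, was above the all-gene median in both lines. Other cytosolic lists had like medians in places, but not throughout. The TRiC and prefoldin median was below the all-gene median in both lines, at -0.030 in K562 and -0.30 in THP-1. That of the J-domain genes was 0.17 in K562 and 0.30 in THP-1, and that of the HSP70 cofactors 0.30 and -0.021. For the other HSP70 and HSP110 genes it was -0.29 and 0.26. These differences were not tested.

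**Figure D5:**
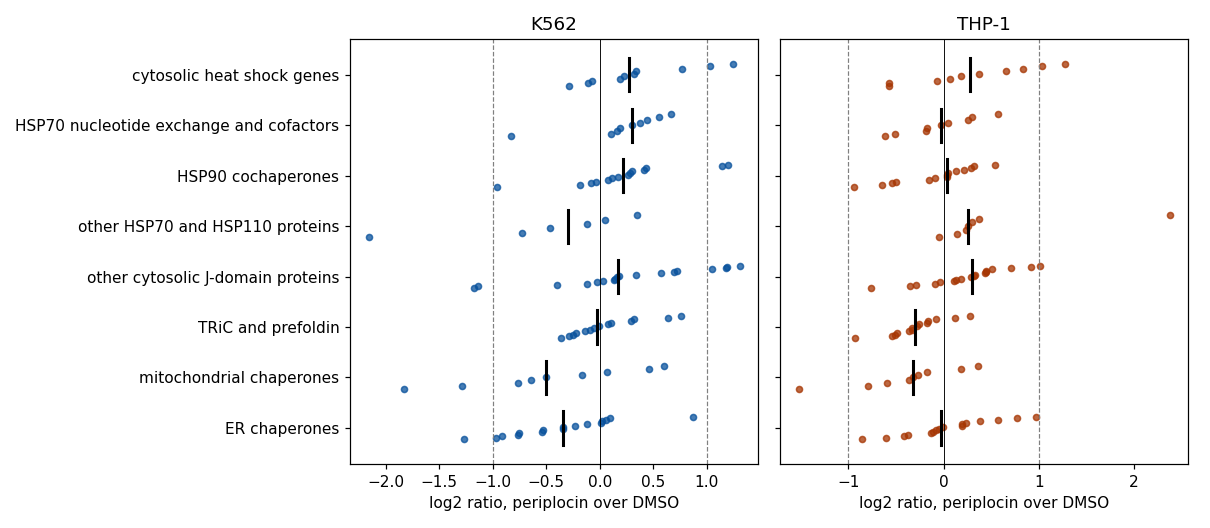
Log2 ratio of periplocin to DMSO in K562 (left) and THP-1 (right) for the 10 cytosolic heat shock genes and 7 lists of other chaperone genes averaging 1 CPM or more; each point is 1 gene, black bars are medians and dashed lines mark 2-fold. The median of the cytosolic heat shock genes is 0.27 in both lines. Those of the other cytosolic J-domain genes are 0.17 and 0.30, and those of the mitochondrial chaperones are -0.50 and -0.32.

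Outside the chaperones, a list of 22 other genes often induced by heat shock was mixed, with medians of 0.058 in K562 and 0.39 in THP-1. Of 20 with at least 1 CPM, 4 were at least 2-fold higher and 3 lower in K562, and 6 were higher and 1 lower in THP-1. HSPA6, described above, is also in this list, among those lower in K562 and those higher in THP-1. JUN, an immediate early gene, was higher in both lines, from 1029 to 2505 and from 151 to 554 counts, and EGR1, another, was lower in both, from 2182 to 467 and from 339 to 130. HMOX1, which degrades heme and is known for induction by oxidative stress, went from 40 to 344 counts in THP-1. In K562 it had only 4 and 16 counts. SQSTM1, a receptor of selective autophagy that works beside BAG3, was higher in both lines. It went from 3011 to 8193 counts in THP-1 and from 4658 to 7239 in K562.

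The patterns most like those of the HSP70 genes were sought among 9780 genes (9781 for HSPA8) averaging 10 CPM or more, by the distance between log2 CPM over the 4 libraries, each centred on its own mean. Nearest to the sum of HSPA1A and HSPA1B was SLC6A8, the creatine transporter gene, at a distance of 0.19, followed by DNAJB4 (0.20), CASS4 (0.22), ELL2 (0.24) and CRADD (0.25). DNAJB4, a J-domain gene, went from 526 to 1107 counts in K562 (log2 ratio 1.05) and had a log2 ratio of 0.705 in THP-1. Nearest to HSPA8 were MTBP (0.062), ADNP2 (0.11), CAAP1 (0.13), ZNF669 (0.13) and TEC (0.15). With 4 libraries, such a likeness mostly reflects the difference between the lines and the signs of the ratios.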

How the data were processed

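Poly-A RNA of K562 and THP-1 cells was sequenced as paired-end reads of 150 bases, with 1 library and 1 biological replicate for each condition. The authors deposited expected counts per gene and library, not normalized, and between 87.4% and 88.3% of the values are whole. The submitters' processing notes name HISAT2, StringTie 1.3.1 and hg38, and the program that gave the counts is not given in the sources used here. Symbols were found for 19703 of 20348 identifiers.

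Expected counts were rounded. Within each line, log2 ratios used TMM factors of edgeR 4.0.16 (R 4.3.3) and a prior count of 0.125, with 95% exact Clopper-Pearson intervals from the counts, and for ratios of genes a normal interval on the log scale. Genes averaging 1 CPM or more in a pair could count as past 2-fold. The fit over 4 libraries took genes that reached 10 counts in 2 or more libraries, with DESeq2 1.42.0 as the alternative, which left 1844 genes without an adjusted p. Transcript lengths and shared windows came from GENCODE 29 on GRCh38, and promoters from RefSeq. Where an exon of another transcript overlapped, stretches of at most 30 bases were taken.

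The 10 genes and all lists were chosen with earlier results of these data known. Genes named were the 10, the heat shock factors, the up to 3 largest ratios per list and line with a mean of at least 5 CPM, and the 5 nearest patterns. HSPA6, CRYAB and HSPB3 are named beyond that rule, on sight of their values. Scripts were tested on simulated data. Alternatives were other scalings, filters, prior counts and fold limits, and the sum of HSPA1A and HSPA1B, which was added after seeing the data. Python 3.11.15 was used for lists and figures.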

Additional observations from a re-analysis of the deposited data

Results flagged for a closer look

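Genes whose intervals lay on opposite sides of no change in the lines are given here as the log2 ratio in THP-1 minus that in K562, and no such difference was tested. Among the cytosolic heat shock genes it was -0.89 for HSPA8, 0.65 for HSPH1 and 0.29 for DNAJB1, whose K562 interval ended close to no change. Among other HSP70 genes it was 4.53 for HSPA6, which had only 18 counts in THP-1 DMSO, 0.98 for HSPA13 and 0.41 for HSPA14. For the HSP70 cofactors BAG1 and STUB1 it was -0.99 and -0.95. For chaperones of the endoplasmic reticulum it was 1.46 for HSPA5 and 1.00 for DNAJB9, and for the mitochondrial exchange factor GRPEL2 it was 1.00. For ATF3, a stress-induced transcription factor, it was 3.54, with 953 and 348 counts in K562 but 28 and 100 in THP-1.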

How the results depend on the processing

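Each result was recomputed with other scalings, filters, prior counts and fold limits. Of 164 ratios of single genes, 144 stayed within their interval from counts. The other 20 moved outside it, under another scaling or with HSPA1A and HSPA1B summed. In K562 the log2 ratio of HSP90AB1, -0.0745, became -0.0481 with DESeq2 size factors. With totals that leave out mitochondrially encoded genes it became -0.117. The intervals thus do not cover the choice of scaling. Of the 164 ratios, 0 that were past 2-fold reversed. The 2 that changed sign were HSF1 (-0.0995) and HSP90AB1 (-0.12) in THP-1 DMSO against K562 DMSO with library totals. The number of the 10 genes at least 2-fold higher in K562, 2, became 1 with totals that leave out mitochondrially encoded genes and 0 with a limit of 4-fold. In THP-1 it became 4 with a limit of 1.5-fold, 0 with 4-fold and 1 with HSPA1A and HSPA1B summed. The shares of all genes past 1.5-fold and 4-fold were not computed, so these counts have no background beside them. Between the DMSO libraries, the number higher in THP-1 became 1 and the median log2 ratio -0.11, from 0.012, with library totals. In the fit over 4 libraries, DESeq2 passed 125 genes and 2 of the 10, and edgeR with library totals or without the filter passed 1 gene and 0 of the 10, where the edgeR result reported had 0. The cause of these shifts was not tested. The fit over 4 libraries already compares periplocin with DMSO within each line. The labels give no replicate numbers, so there was no further pairing to fit, and with 1 library per condition none was left out. Depth was not limiting, since the lowest count of any of the 10 genes was 550.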
